A study of Mus musculus with 4 samples.

Results

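CTCF peaks that lie far from any protein-coding gene were described in mouse gastruloids, cultured stem cell aggregates that elongate and pattern along a head-to-tail axis, 96 h after aggregation. A peak was counted as a gene desert peak where its summit lay outside every protein-coding gene and more than 200 kb from the nearest end of such a gene, on chromosomes 1 to 19 without chromosome 11. Such peaks made up 2770 of 44362 in wild type (6.24%, 95% interval 6.02 to 6.47). InsCBS5-10 had 1444 of 31905 (4.53%, 4.30 to 4.76) and DelCBS7-10 had 1581 of 33915 (4.66%, 4.44 to 4.89). The intervals are exact Clopper-Pearson intervals and cover counting error only. The list of RAD21 peaks from InsCBS5-10 had 941 desert peaks of 18292 (5.14%).

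The libraries were made by ChIPmentation, an immunoprecipitation of fixed chromatin in which the Tn5 transposase adds the sequencing adapters on the beads, and each came from pooled gastruloids. CTCF was mapped in wild type, InsCBS5-10 and DelCBS7-10 and RAD21 in InsCBS5-10, with a single library for each of these 4 groups. Both mutants share the genotype HoxB Del/Del(i9-13), read here as a deletion of HoxB on one chromosome 11 and of the i9-13 interval on the other, together with Ins(CBS5-10), and DelCBS7-10 carries Del(CBS7-10) in addition. The edits named are all at HoxB, on chromosome 11, which was left out here, so the desert peaks lie on other chromosomes. Without replicates, no difference between lists was tested and no p-value is given. The number of reads per library is unknown from these peak lists, so the lack of a call in one list does not show that the site was unbound.

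CTCF is a zinc-finger protein that binds a long, directional DNA motif. It halts cohesin, the ring complex that extrudes chromatin loops and of which RAD21 is a subunit, so sites with both proteins often anchor loops and mark the borders of chromatin domains. Gene deserts are long stretches without protein-coding genes. Many flank genes of transcription factors, signalling proteins or neuronal adhesion molecules, and several are known to hold distant enhancers of these genes.

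The rule also takes in stretches that are not deserts in that sense. The V, D, J and C segments of antigen receptor genes are not annotated as protein-coding, so 3 gaps that hold segments of the Igh, Tcra/Tcrd and Igk loci counted as deserts. These gaps covered 6.23 Mb of the 439 Mb of desert sequence and held 235 of the wild-type desert peaks, 131 of those in InsCBS5-10 and 155 of those in DelCBS7-10. Values are therefore also given for the remaining deserts, here called the other deserts. A further 60, 48 and 48 peaks lay beyond the first or last protein-coding gene of a chromosome, where a gap has a gene on 1 side only.

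Promoters of long noncoding RNAs are the desert places for which reference sequence was at hand. In wild type, 13 desert summits lay in RefSeq promoter windows (GRCm38.p6, 250 bases before to 50 after a start). A 12-base core of the CTCF motif, in which some positions may be any base, was taken from general knowledge of the motif and not from these data, and the shares that follow depend on that choice. It was searched on both strands within 50 bp of each summit. It was found without mismatch at 1 of the 13 and with up to 1 mismatch at 5. At wild-type summits in promoter windows outside deserts, 13.4% of 1282 had the exact core and 50.9% had it with up to 1 mismatch. In the middle 101 bases of all 29107 windows on these chromosomes, the shares were 1.08% and 13.0%. The 5 desert matches were picked by that core, and whether CTCF bound those bases was not tested. They are shown 5′ to 3′ on the strand of the match, with the core in capitals and 12 bases on each side.
Gm46796: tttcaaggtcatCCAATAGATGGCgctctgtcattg
Mir100hg: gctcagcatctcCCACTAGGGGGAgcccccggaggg
Gm13652: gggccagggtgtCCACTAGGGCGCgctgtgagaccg
1700007F19Rik: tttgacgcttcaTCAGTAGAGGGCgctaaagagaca
Gm33680: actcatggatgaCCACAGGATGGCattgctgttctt

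The match at Gm46796 is the one without mismatch. It lies at chr3:6106795-6106830 (minus strand), between Pex2 and 1700008P02Rik. Its peak had a fold enrichment, the authors' ratio of summit signal over the library's local background, of 9.76 in wild type. It was 7.56 in InsCBS5-10 and 6.0 in DelCBS7-10, and RAD21 was called there at 8.66. The match at Mir100hg, the host transcript of a microRNA cluster, lies at chr9:41474789-41474824 (plus strand) between Ubash3b and Gm40514. CTCF had a fold of 12.5, 5.60 and 8.68 in the same order and RAD21 6.10. The match at Gm13652 lies at chr2:75138079-75138114 (minus strand), between Mtx2 and Gm50595, in the desert beside the HoxD cluster that is known for its limb enhancers. CTCF had a fold of 9.85, 6.77 and 8.32 there, and RAD21 11.7. The match at 1700007F19Rik lies at chr3:58163918-58163953 (plus strand) between Pfn2 and Tsc22d2, with CTCF at 10.5, 5.70 and 5.11 and RAD21 at 4.42. These 4 promoters were thus called in every list. Gm33680, at chr12:45466186-45466221 (plus strand) between Stxbp6 and Nova1, had a fold of 4.06 in wild type, no CTCF call in either mutant, and a RAD21 call at 5.28.

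The other 8 promoter peaks had no core within 1 mismatch in the bases searched. The 2 strongest of them in wild type were those at Gm38584 and Gm34332. Gm38584, between Arrdc4 and Nr2f2, a nuclear receptor of mesoderm and vessels, had a CTCF fold of 12.4, 9.78 and 9.56 in wild type, InsCBS5-10 and DelCBS7-10 and a RAD21 fold of 12.2. Gm34332, between Msx2, a homeobox gene of limb and skull, and Drd1, a dopamine receptor, had 11.7, 7.46 and 6.32, and RAD21 8.92. Both were called in all 4 lists. Not all of the 8 were: Gm33083, between Epha4 and Pax3, had 6.37 in wild type and 3.66 in InsCBS5-10. It had no DelCBS7-10 call, and RAD21 was called there at 9.10.

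Desert sequence was poor in CTCF peaks. Deserts made up 19.3% of the 2279 Mb between the first and last protein-coding genes, and held 6.17 wild-type peaks per Mb. InsCBS5-10 had 3.18 per Mb there and DelCBS7-10 had 3.49. The remaining sequence held 22.5, 16.5 and 17.5 peaks per Mb, which is 3.65, 5.19 and 5.02 times as many. RAD21 had 2.05 peaks per Mb in deserts and 9.39 elsewhere. The antigen receptor gaps were unlike the rest, with 37.7, 21.0 and 24.9 CTCF peaks per Mb, against 5.72, 2.92 and 3.18 in the other deserts.

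Density fell with every step away from genes. Wild type had 37.7 peaks per Mb within 10 kb of a gene end, 14.6 at 50 to 100 kb, 8.52 at 200 to 300 kb, 6.71 at 300 to 500 kb, 4.86 at 500 to 1000 kb and 3.55 beyond 1000 kb. In the last bin InsCBS5-10 had 1.35 and DelCBS7-10 1.60 peaks per Mb. Among wild-type peaks at a −log10 q of at least 5, a stricter limit on the authors' significance value, density fell from 30.5 per Mb within 10 kb to 1.27 beyond 1000 kb. The limit of 200 kb is therefore a cut through a slope, not a border. In wild type, 138 peaks lay at 190 to 200 kb with a median fold of 3.83, and 130 lay at 200 to 210 kb with a median of 4.00.

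**Figure D1:**
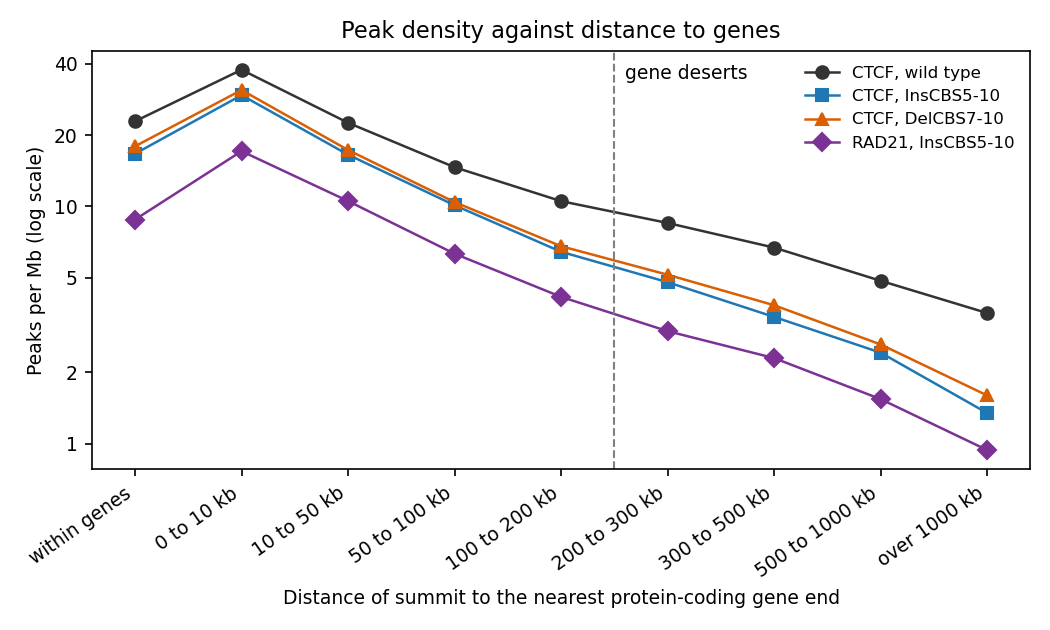
Peaks per Mb of sequence (log scale) against the distance of the summit to the nearest protein-coding gene end, for the 3 CTCF lists and the RAD21 list. From the bin within 10 kb outward every list falls at each step, in wild type from 37.7 to 3.55 peaks per Mb, and the dashed line marks 200 kb.

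Wild-type desert peaks were weaker than the other peaks of their list, and in the mutant lists the gap was small. The median fold in wild type was 3.86 in deserts (quartiles 3.09 and 6.42) and 5.66 outside. In InsCBS5-10 it was 5.31 (3.80 and 6.92) against 5.58, and in DelCBS7-10 5.23 (3.84 and 6.67) against 5.31. A −log10 q of 5 or more was reached by 51.0% of desert peaks in wild type, where 72.0% of all peaks reached it, by 64.3% in InsCBS5-10 (73.6% of all) and by 63.7% in DelCBS7-10 (72.2% of all). Desert peaks were also narrower, with a median width of 242 bp in wild type against 309 bp outside, 277 against 318 bp in InsCBS5-10 and 296 against 326 bp in DelCBS7-10.

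The wild-type list was longer, and its excess of desert peaks lay among its weak peaks. In deciles of fold enrichment within the wild-type list, deserts held 9.92% of the weakest peaks, 11.1% of the next decile and 2.79% of the strongest. In InsCBS5-10 the share was 5.01% in the weakest and 4.23% in the strongest decile, and in DelCBS7-10 5.07% and 5.28%. When the 31905 peaks with the highest −log10 q were taken from each list, deserts held 1411 of the wild-type peaks (4.42%), 1444 in InsCBS5-10 (4.53%) and 1446 in DelCBS7-10 (4.53%), so the lists differed by less than their counting intervals. The wild-type median fold was then 6.36 in deserts and 7.23 outside.

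**Figure D2:**
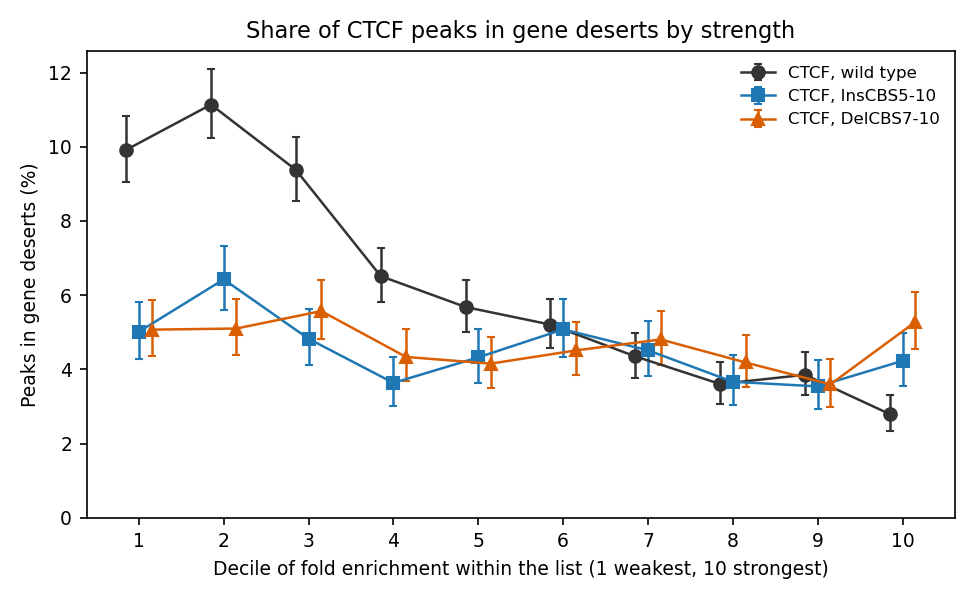
Share of CTCF peaks that lie in gene deserts (%) in each decile of fold enrichment within its list, with exact 95% intervals. The wild-type share falls from 9.92% in the weakest to 2.79% in the strongest decile, and the mutant lists lie between 3.54% and 6.43% throughout.

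A few desert peaks were among the strongest of their lists. A fold of 20 or more was reached by 11 desert peaks in wild type (0.397%, with 0.194% of all peaks), 11 in InsCBS5-10 (0.762%, 0.179% of all) and 12 in DelCBS7-10 (0.759%, 0.168% of all). RAD21 of InsCBS5-10 was called at 9, 10 and 11 of them, and outside deserts at 60 of 75, 44 of 46 and 44 of 45 peaks of that strength. Regions prone to artifacts were not filtered out here, and their part in these peaks was not tested. The strongest wild-type desert peak, at chr4:153153042-153153270, 590 kb from Nphp4, a gene of the ciliary base, and 220 kb from Ajap1, a junction protein, had a fold of 38.9, with 25.2 in InsCBS5-10 and 24.4 in DelCBS7-10. No RAD21 peak overlapped it. The next, at chr12:93576978-93577250 between Gm40892 and Flrt2, an adhesion molecule of the FLRT family, had 37.4, 22.7 and 24.4, and RAD21 at 23.4. The peaks at chr2:57629491-57629726 (Gpd2 to Galnt5; 35.4 in wild type) and at chr4:64497727-64498059 (Tnc, a matrix protein, to Pappa; 32.7 in wild type) were also called in every list.

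The mutants shared their strongest sites. Both had their highest desert fold at a site between Pcdh7, a protocadherin, and G6pd2, at chr5:60042722-60043070 in InsCBS5-10: 37.3 in InsCBS5-10, 38.6 in DelCBS7-10 and 12.7 in wild type, with RAD21 at 39.4. It lies 1910 kb from Pcdh7 and 1766 kb from G6pd2. The second in both, at chr12:97061432-97061787 between Flrt2 and Galc, had 36.6, 35 and 30.1 in the same order and RAD21 at 34.2. The site between Nxph1, a secreted neurexin ligand, and Ndufa4 had 30.4, 29.7 and 23.6, again in that order. Fold enrichment is scaled to each library's own background, so these values are set side by side and not compared between lists. The last of the 5 strongest DelCBS7-10 desert peaks lay between Myom2 and Csmd1, at 24.9, and RAD21 there had 26.9.

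The wild-type peak at chr14:86198997-86199139, between Pcdh17, a protocadherin, and Diaph3, a formin, had a fold of 37.0 and no call in either mutant or in RAD21. As for the other peaks of that strength, the part of regions prone to artifacts was not tested. The 4 next strongest wild-type desert peaks without a mutant call had folds of 17.6 (Pex2 to 1700008P02Rik), 14.7 (Tbx18, a T-box gene, to Nt5e), 13.1 (Zfp352 to Elavl2) and 10.6 (Nkain3 to Prdm13, a zinc-finger gene of the neural tube). RAD21 was called in InsCBS5-10 at the last of these, with a fold of 13.2.

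RAD21 was called at desert CTCF peaks about as often as elsewhere, and less often at the antigen receptor loci. In InsCBS5-10, where both proteins were mapped, a RAD21 peak overlapped 700 of 1444 desert CTCF peaks (48.5%, 45.9 to 51.1), 48.8% of all CTCF peaks and 48.8% of those outside deserts. It overlapped 34 of 131 peaks in the antigen receptor gaps (26.0%, 18.7 to 34.3) and 666 of 1313 in the other deserts (50.7%, 48.0 to 53.5). Peaks outside deserts weighted to the decile mix of those in the other deserts gave 45.9%, which lies under that interval. Among peaks at a −log10 q of at least 5, the share was 67.9% (64.7 to 71.1) in the other deserts, 60.01% outside and 60.2% in all.

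The RAD21 share rose with CTCF strength inside and outside deserts. It was 15.0% in the weakest decile of fold in deserts and 11.8% outside, 54.3% and 48.1% in decile 5, and 78.5% and 80.2% in the strongest. Without the antigen receptor loci, 100 of 114 desert peaks in the strongest decile had RAD21 (87.7%, 80.3 to 93.1). Desert CTCF peaks with RAD21 had a median fold of 6.35 and those without 4.12. Of those with RAD21, 92.4% were called in all 3 CTCF lists, against 53.5% of those without and 80.0% of all InsCBS5-10 peaks.

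**Figure D3:**
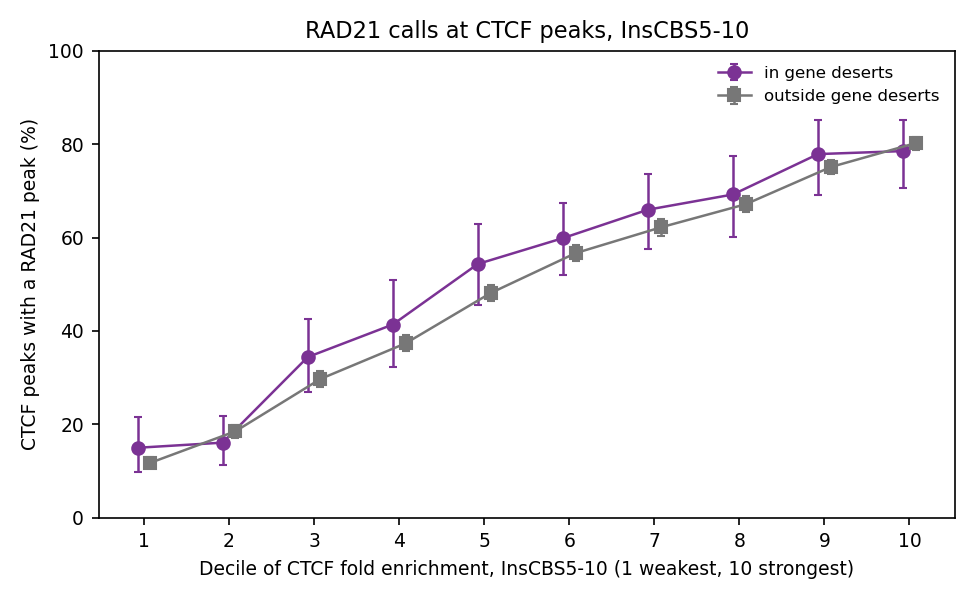
Share of InsCBS5-10 CTCF peaks overlapped by a RAD21 peak (%) in each decile of CTCF fold enrichment, for peaks in and outside gene deserts, with exact 95% intervals. Both lines rise together, from 15.0% and 11.8% to 78.5% and 80.2%.

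The strongest desert CTCF peaks without RAD21 lay mostly in 1 antigen receptor locus. After the peak between Nphp4 and Ajap1 described above, the next 4 were all between Gm36448 and Dad1, the Tcra/Tcrd locus, with InsCBS5-10 folds of 13.4, 12.8, 12.6 and 12.2. The same 4 sites had folds of 17.7, 14.1, 13.1 and 12.9 in wild type and 10.9, 11.4, 12.4 and 12.9 in DelCBS7-10.

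Seen from RAD21, desert peaks less often had CTCF. An InsCBS5-10 CTCF peak overlapped 700 of 941 desert RAD21 peaks (74.4%, 71.5 to 77.2), 85.7% of the RAD21 peaks outside deserts and 85.1% of all. Where both were called in a desert, the summits lay a median of 23 bp apart. None of the 3 CTCF lists had a peak at 90 desert RAD21 peaks (9.56%, 7.76 to 11.6), against 4.29% outside and 4.56% of all. These had a median RAD21 fold of 3.83. The strongest, chosen after its values were seen, had a fold of 9.92 and lay between Cntnap5b and Cdh20, a contactin-associated protein and a cadherin.

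Desert peaks of wild type were found in the mutant lists less often than other wild-type peaks. InsCBS5-10 had a peak at 42.7% of them (40.8 to 44.5), with 63.0% of all wild-type peaks and 64.3% of those outside deserts. DelCBS7-10 had a peak at 44.9% (43.1 to 46.8), with 65.8% of all and 67.2% outside. Peaks outside deserts weighted to the decile mix of the desert peaks gave 48.7% and 52.2%, values between the desert shares and the shares outside. In wild-type decile 1, InsCBS5-10 had 4.55% of the desert peaks and 11.4% of those outside. In decile 6 it had 84.0% and 82.1%, in decile 8 92.5% and 96.5%, in decile 9 98.8% and 98.5%, and in the strongest decile 96.8% and 99.2%. Of the wild-type desert peaks, 1038 (37.5%) were called in both mutants, where 57.7% of all wild-type peaks were, and 1381 (49.9%) in neither, where 28.9% of all were. The first had a median fold of 7.24 and the second 3.16, and 94.4% of the first but 16.4% of the second had a −log10 q of 5 or more.

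The mutants' desert peaks were mostly found in wild type. Wild type had a peak at 82.8% of those of InsCBS5-10 (80.7 to 84.7; 87.5% of all InsCBS5-10 peaks) and at 79.3% of those of DelCBS7-10 (77.2 to 81.3; 85.8% of all). DelCBS7-10 had 74.4% of the InsCBS5-10 desert peaks (82.7% of all), and InsCBS5-10 had 68.2% of those of DelCBS7-10 (77.7% of all). At a −log10 q of 5 or more, wild type had 98.5% of the InsCBS5-10 desert peaks (98.4% of all) and 96.0% of those of DelCBS7-10 (97.1% of all). InsCBS5-10 then had 76.0% of the wild-type desert peaks (82.0% of all) and DelCBS7-10 had 77.3% (84.4% of all). Between the mutants, the shares were then 94.1% of the InsCBS5-10 desert peaks (95.5% of all) and 89.2% of those of DelCBS7-10 (92.7% of all).

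Desert peaks stood wide apart. Neighbouring summits in the same desert were a median of 52.7 kb apart in wild type, 65.8 kb in InsCBS5-10 and 63.0 kb in DelCBS7-10, against 21.3, 26.3 and 25.1 kb between neighbours outside deserts. In the other deserts the medians were 61.8, 81.8 and 76.6 kb, and in the antigen receptor gaps 14.5, 24.5 and 19.5 kb. Intervals of more than 200 kb made up 17.7% of those in deserts in wild type and 2.78% of those outside. Close pairs also occurred: 9.37% of wild-type desert intervals were within 5 kb, against 14.6% outside. Only summits of the same desert were paired, so a distance could not exceed the length of desert left after trimming, a median of 0.346 Mb. Neighbours outside deserts were not held to that limit, with distances of up to 2114 kb in wild type. Deserts with a single peak or none gave no distance. The number of peaks called also differed between the lists, and its part in the spacing was not tested.

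Long stretches had no peak in a given list. The longest run of desert core without a wild-type CTCF peak measured 2152 kb, between Otol1, an inner ear matrix protein, and Sis, an intestinal sugar-cleaving enzyme, on chromosome 3. In InsCBS5-10 it measured 3028 kb, between Dsel and Cntnap5a on chromosome 1, and in DelCBS7-10 3423 kb, between Slc39a10 and Tmeff2 on chromosome 1. Both exceed the 2152 kb of wild type, so the wild-type list had peaks within these stretches. Between neighbouring protein-coding genes there were 695 deserts, with a median core, the part more than 200 kb from both genes, of 0.346 Mb and a longest of 4.14 Mb between the protocadherin genes Pcdh20 and Pcdh9. Of the 695, 400 had a peak in all 3 lists, 165 had none in wild type and 148 had none in any CTCF list.

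The 3 deserts with the most wild-type peaks were the antigen receptor gaps. The Igh gap, from Adam6a to Zfp386 on chromosome 12, had 128 wild-type peaks, 50 in InsCBS5-10 and 64 in DelCBS7-10, and 33 RAD21 peaks. The Tcra/Tcrd gap, from Gm36448 to Dad1, an oligosaccharyltransferase subunit, on chromosome 14, had 71, 58 and 67 CTCF peaks and 11 RAD21 peaks. The peaks of these 2 gaps also differed in strength: the wild-type median fold was 3.13 in the Igh gap and 7.44 in the Tcra/Tcrd gap. Of the 71 wild-type peaks in the Tcra/Tcrd gap 49 were called in both mutants, and of the 128 in the Igh gap 30 were, where 57.7% of all wild-type peaks were.

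Next in order came 7 deserts with 16 to 28 wild-type peaks. The fourth, from Gm4868 to Tmem132c on chromosome 5, had 28 wild-type peaks, 18 in InsCBS5-10 and 26 in DelCBS7-10, and 8 RAD21 peaks, in a core of 0.992 Mb. The gap also holds 13 genes of long noncoding RNAs. Of the wild-type peaks there, 14 were called in both mutants. The strongest in wild type, at chr5:126623223-126623616, had folds of 9.94, 9.01 and 9.32 in wild type, InsCBS5-10 and DelCBS7-10 and 11.1 for RAD21.

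The fifth desert lies between Sall3, a zinc-finger transcription factor of the spalt family with roles in nervous system and limb, and Galr1, a galanin receptor, on chromosome 18. It had 24, 18 and 20 CTCF peaks and 13 RAD21 peaks in a core of 1.01 Mb, or 23.9, 17.9 and 19.9 CTCF peaks per Mb. Sites called in all 3 CTCF lists numbered 13, and 12 of the 18 InsCBS5-10 peaks had RAD21. Over all peaks, 57.7% of those in wild type were called in both mutants and 48.8% of those in InsCBS5-10 had RAD21, and the same shares stand behind the counts for the deserts that follow. A group of 6 of these sites stood 929 to 1020 kb from Sall3. The strongest of them in wild type, at chr18:81951589-81952052, had folds of 14.7, 12.2 and 8.90 and RAD21 at 7.02. A single strong site stood on the other side, 239 kb from Sall3, with 9.80, 11.3 and 10.2 and RAD21 at 10.4. The stretch between 239 and 810 kb held no site called in all 3 lists. A fold of 5.62 at 712 kb from Sall3, called in InsCBS5-10 alone, was the second strongest InsCBS5-10 desert peak without a wild-type call (chosen after its values were seen).

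**Figure D4:**
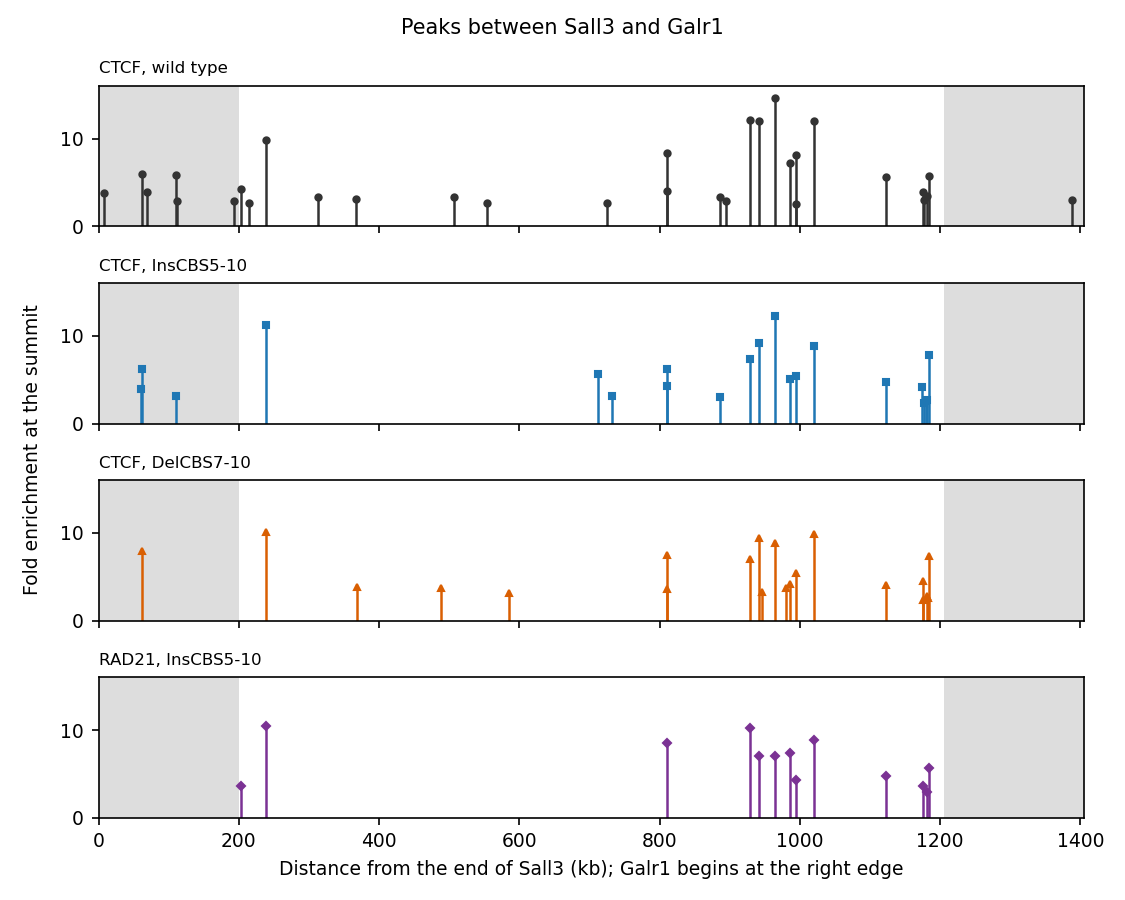
Fold enrichment at each peak between Sall3 and Galr1 against distance from the end of Sall3 (kb), 1 panel per library, with the 200 kb next to each gene in grey. The same strong sites stand in every panel at 239 kb, 810 kb and 929 to 1020 kb, and the weaker peaks between 239 and 810 kb differ from list to list.

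The sixth desert, between Adgrl2 and Adgrl4, adhesion receptors of the latrophilin group and of vessels, on chromosome 3, had 20, 10 and 8 peaks and 6 RAD21 peaks in 2.05 Mb. The seventh, between Auts2, a nuclear protein of brain development, and Castor2, on chromosome 5, had 18, 7 and 10, and 6 RAD21 peaks. Of its wild-type peaks 3 were called in both mutants, all within 1042 to 1253 kb of Auts2, the strongest at chr5:133795688-133796079 with 8.27, 6.52 and 5.81 and RAD21 at 9.43.

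The eighth lies between Zeb2, a zinc-finger homeobox repressor of neural crest and gastrulation, and Acvr2a, a receptor for activins, on chromosome 2. It had 18, 5 and 12 CTCF peaks and 6 RAD21 peaks in 3.30 Mb. All 5 InsCBS5-10 peaks were also called in wild type and DelCBS7-10, and 4 of them had RAD21. Of all InsCBS5-10 peaks, 80.0% were called in both of these lists. The 5 peaks stood 1327, 2349, 2375, 2669 and 2885 kb from Zeb2. The last, at chr2:48001768-48002210, was the strongest, with folds of 11.4, 9.62 and 8.75 and RAD21 at 6.36. The median fold of all 18 wild-type peaks in that desert was 3.50, so most of the others were weak.

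The ninth desert, between Ube3a, an imprinted ubiquitin ligase gene, and Snurf on chromosome 7, is the long noncoding transcription unit of small nucleolar RNAs. It had 17, 9 and 12 peaks and 4 RAD21 peaks in a core of 0.272 Mb. Its peaks were weak, with highest folds of 4.15, 4.00 and 5.09 in the same order of lists. The tenth, between Matn1, a cartilage matrix protein, and Ptpru, a receptor tyrosine phosphatase, on chromosome 4, had 16, 10 and 10 peaks and 7 RAD21 peaks in 0.413 Mb. Here 9 sites were called in all 3 lists. All 7 RAD21 peaks overlapped InsCBS5-10 CTCF peaks, where 85.1% of all RAD21 peaks did. The strongest in wild type, at chr4:131431186-131431639, had 13.6, 8.82 and 7.96 and RAD21 at 8.30.

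**Figure D5:**
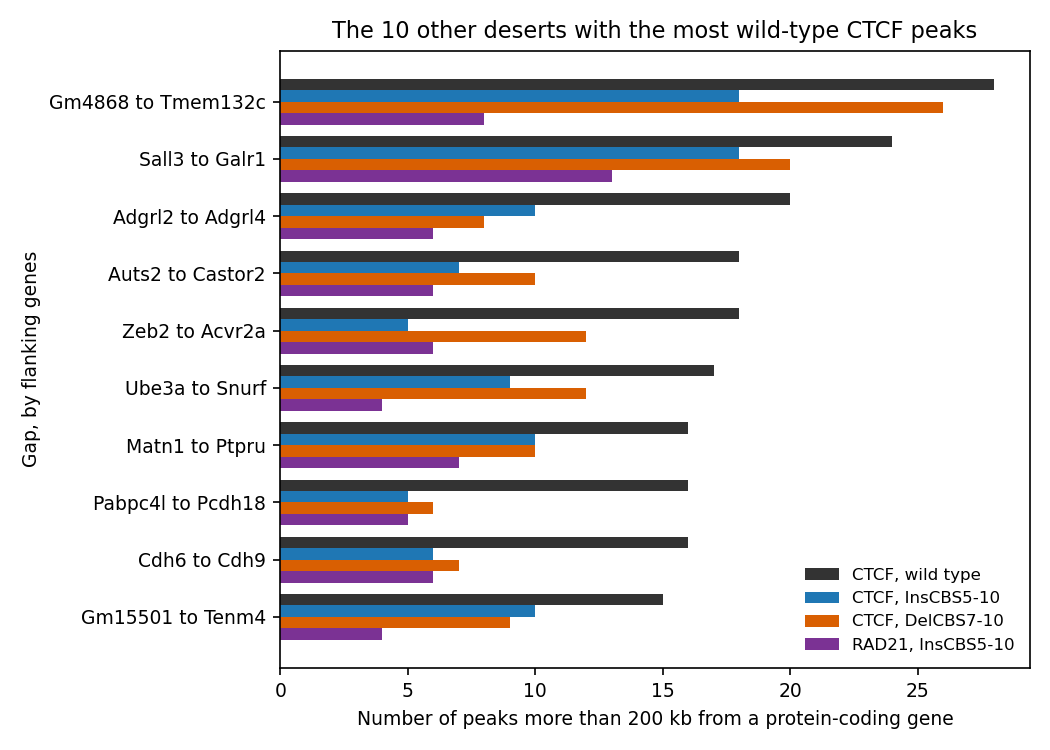
Number of peaks more than 200 kb from a protein-coding gene in the 10 deserts with the most wild-type CTCF peaks outside the antigen receptor loci, 1 bar per list. They hold 15 to 28 wild-type peaks each, and in all 10 the wild-type bar is the longest.

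By peaks per Mb, among deserts with a core of 1 Mb or more, the first 4 in order were the Igh gap (60.9 in wild type), the Tcra/Tcrd gap (54.9), Sall3 to Galr1 (23.9) and Auts2 to Castor2 (15.6). This order depends on the minimum core: shorter deserts had more per Mb, with 62.6 in Ube3a to Snurf, 38.7 in Matn1 to Ptpru and 28.2 in Gm4868 to Tmem132c.

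Genes flanking deserts were grouped by 5 lists. Homeobox and paired-type transcription factors flanked 36 of the 692 other deserts, with 172 wild-type peaks, 86 in InsCBS5-10 and 89 in DelCBS7-10, or 10.0 peaks per Mb in wild type against 5.72 in all 692. At the mean density of all these deserts at the same distances from genes, 107 wild-type peaks would lie there, so the list had 1.61 times that number in wild type, 1.54 times in InsCBS5-10 and 1.47 times in DelCBS7-10. Of the 36 deserts, 24 lay above their value at that density in wild type, 20 did so in InsCBS5-10 and 18 in DelCBS7-10. Among the 454 deserts with no gene of the 5 lists, 176, 161 and 170 did so in the same order. The second list, named for Sox, Fox, Tbx, Gata, basic helix-loop-helix and zinc-finger factors, also holds other regulators such as Auts2, Lmo4 and Id2. It flanked 78 deserts, with 333, 182 and 194 peaks and ratios of 1.28, 1.34 and 1.31. Above their value lay 41, 37 and 37 of the 78. Its desert from Auts2 to Castor2 had 18, 7 and 10 peaks, where 6.65, 3.39 and 3.68 would lie at the mean density. Its desert from Nr2f1 to Arrdc3 had 14, 5 and 3, where 10.2, 4.85 and 5.34 would. In the homeobox list, Zeb2 to Acvr2a had 18, 5 and 12, where 13.1, 5.88 and 6.61 would. For the second list as a whole the ratios above apply. Secreted signals, receptors and their modulators flanked 51, with 168, 84 and 87 peaks and ratios of 0.887, 0.870 and 0.827. Sensory receptor genes flanked 6 deserts with 3 wild-type peaks, and deserts with no gene of the 5 lists, 454 in number, had a ratio of 0.980 in wild type. These ratios describe the lists and were not tested.

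Neuronal adhesion molecules flanked 73 deserts with a median core of 1.05 Mb, against 0.344 Mb over all 692, and 426, 216 and 217 peaks. Their ratios were 0.848, 0.894 and 0.814. They flanked 15 of the 50 deserts with the most wild-type peaks (30%) and 73 of all 695 (10.5%), so they stood high by number with few peaks per Mb, 3.96 in wild type. Examples are Cdh6 to Cdh9, both classical cadherins, with 16, 6 and 7 peaks in 3.15 Mb, Pabpc4l to Pcdh18 with 16, 5 and 6 in 2.90 Mb, and Gm15501 to Tenm4, a teneurin, with 15, 10 and 9 in 2.59 Mb.

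Among the 50 richest deserts outside the antigen receptor loci, 11 were flanked by a gene of the first 3 lists (22%), against 161 of all 692 (23.3%). Sall3, Auts2 and Zeb2, described above, were 3 of them. Nr2f1 to Arrdc3, beside a nuclear receptor of forebrain and neural crest, had 14, 5 and 3 peaks in wild type, InsCBS5-10 and DelCBS7-10. Its core was 2.28 Mb long. Med13l to Tbx3, beside a T-box gene of limb and heart, had 13, 4 and 3 in a core of 0.505 Mb, 25.7 per Mb in wild type. Sall1 to Tox3, a spalt factor and an HMG-box protein, had 13, 8 and 7, and RAD21 was called at 6 of the 8 InsCBS5-10 peaks. Tmem182 to Pou3f3, a POU factor of brain and kidney, had 12, 5 and 6.

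Deserts with 10 wild-type peaks each included 4930519L02Rik to Lmo4, a LIM-domain cofactor (5 in InsCBS5-10 and 5 in DelCBS7-10), Id2, an inhibitor of helix-loop-helix factors, to Rnf144a (5 and 3), and Slc4a3 to Epha4, an ephrin receptor (7 and 5). In the deserts of the homeobox list, 50.0% of InsCBS5-10 CTCF peaks had RAD21, in those of the second list 49.5%, of the signals list 57.1% and of the adhesion list 49.5%, beside 50.7% in the other deserts as a whole.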

How the data were processed

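Each library has 1 deposited peak list in the narrowPeak form of MACS2. The authors made it with cutadapt 4.1 and MACS2 2.2.7.1 on mm10, per the submitters' processing notes. Not given in the sources used here are the aligner, control library and caller options. The deposited fold enrichment gives the ratio of summit signal to local background. The deposited −log10 p and −log10 q, and the authors' score (10 times the −log10 q), were also computed per library. Every list ended at a −log10 q of 1.30. The values were used only within a list. Depth is unknown. A list without a sample (1 list) was not analysed here.

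Rows with the same interval were merged at the summit of highest −log10 q. Genes came from the RefSeq GRCm38.p6 table (18958 protein-coding genes used; 98 placed before 3 Mb, on unplaced or patch sequence, were left out), and promoter sequence from RefSeq of the same assembly. A desert is a gap between neighbouring protein-coding genes less 200 kb on each side. Overlap means 1 bp or more. Deciles of fold were set within a list. Shares have exact 95% intervals. Python 3.11.15, pandas 2.3.3, numpy 2.4.6 and scipy 1.17.1 were used, and the functions were tested on simulated data.

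The genes named flank the 10 deserts with the most wild-type peaks (ties by peaks per Mb) and the 5 of 1 Mb or more with the most per Mb, or lie beside the 5 strongest desert peaks of each CTCF list, of InsCBS5-10 without RAD21 and of wild type in neither mutant, or belong to the lists, and a few of them are not reported here. The members and lists were chosen with earlier results of these data known, and the promoter sequences after their values were seen. Alternatives were distance, −log10 q, predicted genes, overlap and summit merging, and, added after seeing the data, leaving out antigen receptor loci and taking equal numbers of strongest peaks.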

Additional observations from a re-analysis of the deposited data

How the results depend on the processing

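With 1 library per group, no replicate could be left out. No paired analysis was possible because each group had 1 library. With desert peaks taken over 100 kb from genes, their numbers in wild type, InsCBS5-10 and DelCBS7-10 were 4814, 2697 and 2902, the wild-type median fold was 4.1, the spacing 43.5, 52.8 and 51.7 kb, and the wild-type peaks found in InsCBS5-10 and DelCBS7-10 46.4% and 48.1%. Over 500 kb, the numbers were 863, 403 and 447, the wild-type fold 3.61, the spacing 71.9, 80.0 and 79.7 kb and the RAD21 share 43.4%. The shares found were then 36.4% and 39.3% for wild type in InsCBS5-10 and DelCBS7-10, 78.2% and 70.0% for InsCBS5-10 in wild type and DelCBS7-10, and 75.8% and 63.3% for DelCBS7-10 in wild type and InsCBS5-10. At a −log10 q of 5 or more, the numbers were 1413, 928 and 1007, the median folds 6.35, 6.39 and 6.27, the spacing 65.1 kb in wild type and 71.9 kb in DelCBS7-10, the RAD21 share 64.3%, and the shares found, in the same order, 76.0%, 77.3%, 98.5%, 94.1%, 96.0% and 89.2%. The 10 deserts ranked first then held 210 peaks in place of 376 and kept 7 of the same deserts. Ranked by peaks per Mb with no minimum core length, unlike the order for cores of 1 Mb or more in the report, the first 10 held 232 and kept 3. Without predicted genes (3518, 1855 and 2024 desert peaks), the folds were 3.64, 5.01 and 4.92 and the spacing 37.1, 50.4 and 46.9 kb. Where 50% of both peaks had to overlap, the 6 shares were 38.5%, 39.5%, 73.9%, 66.1%, 69.2% and 60.3% and the RAD21 share 41.8%. With summits within 100 bp they were 39.5%, 41.5%, 75.8%, 69.0%, 72.7% and 63.0%, and 45.3%. With each summit counted, the spacing was 41.0, 46.8 and 44.0 kb. Without antigen receptor loci (chosen after seeing the data), it was 61.8, 81.8 and 76.6 kb. With equal numbers of strongest peaks (also chosen afterwards), wild type had 1411 desert peaks with a median fold of 6.36, and DelCBS7-10 a fold of 5.43. The cause of these shifts was not tested. Depth is unknown, so how far it limits the weak wild-type peaks could not be measured.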

Other observations

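Ends of chromosomes also held desert peaks. Between the start of chromosome 16 and Olfr161, an olfactory receptor gene, the lists of wild type, InsCBS5-10 and DelCBS7-10 held 26, 19 and 18 CTCF peaks, and RAD21 had 16 peaks. At the start of chromosome 9, before Alkbh8, wild type had 9, InsCBS5-10 16 and DelCBS7-10 17, and RAD21 had 17. These gaps have a gene on 1 side only and were left out of the ranking. Regions prone to artifacts were not filtered out, and their part in these counts was not tested.

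Some desert peaks of each mutant had no wild-type call. The strongest such peak in InsCBS5-10, with a fold of 5.92, lay between Kcna4, a potassium channel, and Mettl15, and DelCBS7-10 had 5.94 at the same place. The strongest in DelCBS7-10, with 7.47, lay between Cd83 and Jarid2, a Polycomb partner, with 3.99 in InsCBS5-10.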
